A study of Homo sapiens with 4 samples.

Results

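The clustered protocadherin genes lie in 3 neighbouring subclusters, alpha, beta and gamma, on the long arm of chromosome 5. They were examined here through the CTCF and H3K27ac peaks of DU145, an established prostate cancer line derived from a brain metastasis. The members were the peaks of both lists whose summit lay in chr5:140150000-140900000 (hg19), a window set by gene position and not by any measured value. It held 45 of 36152 CTCF peaks and 10 of 50364 H3K27ac peaks. The subclusters were taken as chr5:140160000-140390000 for alpha, chr5:140430000-140630000 for beta and chr5:140710000-140890000 for gamma. The 200 kb on each side served for comparison.

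The series holds 4 libraries: DU145 chromatin pulled down with an antibody to CTCF, DU145 chromatin pulled down with an antibody to histone H3 acetylated at lysine 27 (H3K27ac), and 2 inputs, from DU145 and from LNCaP (a prostate cancer line of lymph node origin). The cells were grown without any stated treatment or genetic change. With a single library for each mark there is no replicate spread, and differences are described without a test. The intervals given cover counting error only, and peaks of 1 library are not replicates of a condition.

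Protocadherins of these clusters are adhesion proteins of the cell surface, best known for giving single neurons a distinct identity. In alpha and gamma each variable exon has its own promoter and is spliced to constant exons shared by the subcluster, whereas beta genes are single-exon genes without shared constant exons. CTCF, a zinc finger protein, binds many of these promoters, and in alpha it also binds a second site inside many variable exons. Together with the cohesin ring it brings a chosen promoter to distant enhancers. H3K27ac is found on nucleosomes beside promoters and enhancers in use.

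RefSeq lists 15 alpha, 16 beta and 22 gamma protein-coding genes, and promoter sequences (250 bases before to 50 after the start) were at hand for 13, 14 and 20 of them. These sequences are shown because many promoters of each subcluster share a short element, and CTCF is known to bind there. The promoters come from GRCh38.p14 and the peaks from hg19, so no peak was tied to a gene. Capitals mark the run of 10 bases found in the highest number of promoters of the subcluster (among ties, one with the letters CGCT), and all sequences are on the plus strand, which is the strand of the genes:
PCDHA1: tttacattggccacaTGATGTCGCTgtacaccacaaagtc
PCDHA2: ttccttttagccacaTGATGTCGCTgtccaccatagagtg
PCDHA4: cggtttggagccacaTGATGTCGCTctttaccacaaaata
PCDHA8: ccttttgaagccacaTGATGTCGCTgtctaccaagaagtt
PCDHA12: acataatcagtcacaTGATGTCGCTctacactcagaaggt
PCDHB2: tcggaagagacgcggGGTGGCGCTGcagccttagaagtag
PCDHB5: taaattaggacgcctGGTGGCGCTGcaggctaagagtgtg
PCDHB8: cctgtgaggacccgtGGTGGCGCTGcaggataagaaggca
PCDHB13: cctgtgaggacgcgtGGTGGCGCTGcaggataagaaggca
PCDHB15: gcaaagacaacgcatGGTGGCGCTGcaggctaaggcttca
PCDHGA1: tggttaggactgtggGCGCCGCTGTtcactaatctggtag
PCDHGB4: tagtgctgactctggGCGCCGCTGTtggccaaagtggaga
PCDHGB5: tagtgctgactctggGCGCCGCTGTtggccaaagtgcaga
PCDHGA8: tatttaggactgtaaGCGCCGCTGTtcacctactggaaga
PCDHGA10: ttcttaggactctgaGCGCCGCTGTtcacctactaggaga

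All 3 elements contain the letters CGCT, which ties favoured, but what surrounds them differs by subcluster. The alpha element TGATGTCGCT was in 8 of 13 alpha promoters, from 87 to 44 bases before the start. On either strand it was in 12 of the 27305 genes with a promoter in the table, 0.0439%. The beta element GGTGGCGCTG was in 12 of 14 beta promoters (0.341% of all genes), and the gamma element GCGCCGCTGT in 9 of 20 gamma promoters (0.165% of all genes). Each element was picked as the most shared run of its own subcluster, so these counts are a description. CGCT alone was in 12 of 13 alpha, 14 of 14 beta and 20 of 20 gamma promoters, beside 71.9% of all genes. PCDHA9 was the promoter without it.

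Letters of the general CTCF core were sought in the same promoters. AGGNGGC, on either strand, was in 1 of 13 alpha, 3 of 14 beta and 0 of 20 gamma promoters, beside 39.7% of all genes. GGNGGCGC lies wholly within the beta element, so the 12 beta promoters with that element hold it in any case. It was in 13 of 14 beta, 0 of 13 alpha and 1 of 20 gamma promoters, beside 20.1% of all genes. A match is no binding site by itself, and a missing match says only that these letters are not in the stretch searched. Some of the genes are close copies of each other. The elements of PCDHB8 and PCDHB13 as printed were identical at 39 of 40 bases, as were those of PCDHGB4 and PCDHGB5, while PCDHA2 and PCDHA8 matched at 29 of 40.

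The window was rich in CTCF peaks, while its density of acetylated peaks was near that of the chromosome and below that of its flanks. It held 60 CTCF peaks per Mb (exact Poisson 95% interval 43.8 to 80.3), beside 11 per Mb on chromosome 5. For H3K27ac it held 13.3 peaks per Mb (interval 6.39 to 24.5), beside 14.4 on the chromosome. Over the autosomes as a whole, the CTCF density of the window was 4.83 times higher (interval 3.52 to 6.46), and the H3K27ac density was 0.760 times the autosomal one, with an interval (0.365 to 1.40) that includes 1. There were 4.5 CTCF peaks for each H3K27ac peak in the window, against 0.718 in the lists.

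The flanks had the opposite balance. Together they held 13 CTCF and 32 H3K27ac peaks, 0.406 CTCF peaks per H3K27ac peak. H3K27ac density in the window was 0.167 times that of the flanks (interval 0.0731 to 0.347). CTCF density was 1.85 times that of the flanks, with an interval (0.979 to 3.73) that includes 1. The CTCF ratio was 1.60 with a −log10 q of 10 or more and 1.07 with folds at or above the list median. The flanks were not alike. The side before alpha, where RefSeq's gene order has HARS1 and HARS2 (histidyl-tRNA synthetases) and ZMAT2, had 3 CTCF and 12 H3K27ac peaks. The side after gamma, where it has DIAPH1 (a formin of the actin skeleton), HDAC3 (a histone deacetylase) and RELL2, had 10 CTCF and 20 H3K27ac peaks, so its CTCF density of 50 per Mb equalled that of gamma.

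**Figure D1:**
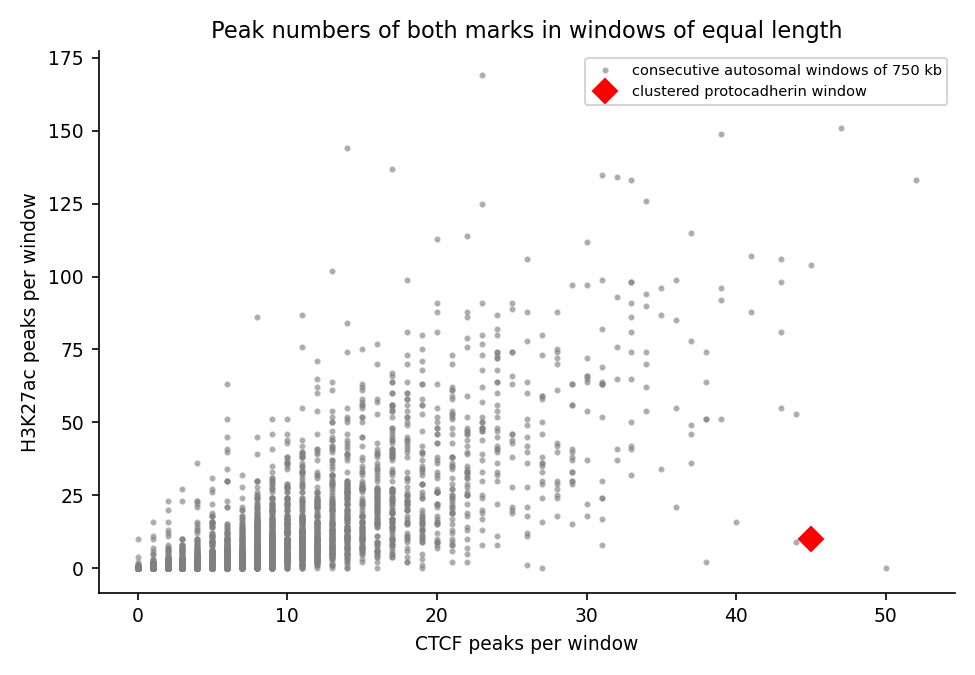
Number of CTCF peaks (horizontal axis) and of H3K27ac peaks (vertical axis) in 3830 consecutive autosomal windows of 750 kb (grey points) and in the clustered protocadherin window (red diamond). The diamond, at 45 CTCF and 10 H3K27ac peaks, lies at the far right and near the bottom.

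Among 3830 consecutive autosomal windows of the same length, the median was 8 CTCF peaks (quartiles 3 and 13) and 5 H3K27ac peaks (quartiles 0 and 16). Only 4 of these windows had 45 or more CTCF peaks, and 65.0% had 10 or fewer H3K27ac peaks. Of the 84 windows with 30 or more CTCF peaks, 4 had 10 or fewer H3K27ac peaks, and the median of the 84 was 65.5. The plot of peak numbers in windows of equal length shows the locus beside them. Consecutive windows were cut without regard to genes, and a pair of them share part of the locus. The earlier of this pair had 33 CTCF and 41 H3K27ac peaks, and the later had 36 and 21. Both were among the windows with 30 or more CTCF peaks, and neither had 10 or fewer H3K27ac peaks. The place of the locus among these windows therefore depends on where its window was cut.

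**Figure D2:**
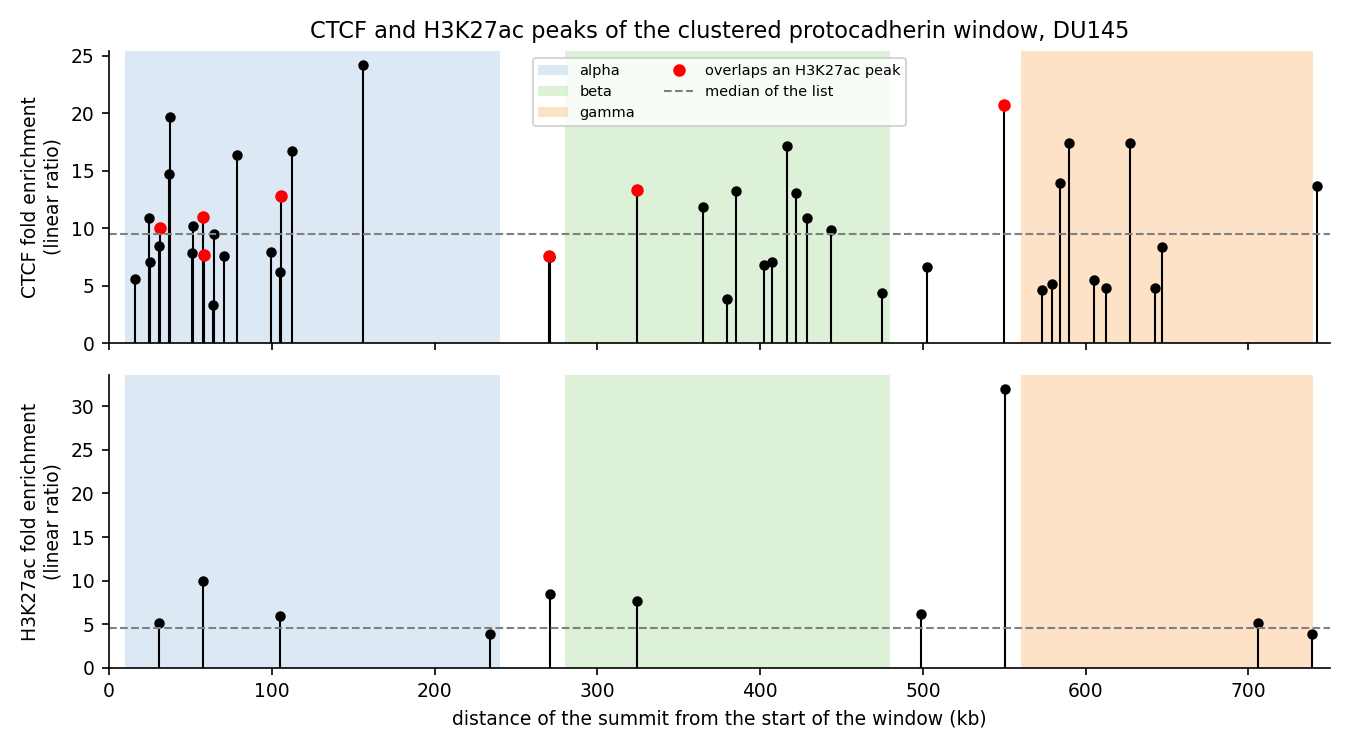
Fold enrichment at the summit of each CTCF peak (upper panel) and each H3K27ac peak (lower panel) against the distance from the start of the window in kb, with alpha, beta and gamma shaded. Red points are the 7 CTCF peaks that overlap an H3K27ac peak, dashed lines are the medians of the lists.

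The 45 CTCF peaks were spread unevenly over the subclusters. Alpha had 20 in 230 kb (87.0 per Mb, interval 53.1 to 134.3), beta 11 in 200 kb (55.0 per Mb, interval 27.5 to 98.4) and gamma 9 in 180 kb (50 per Mb, interval 22.9 to 94.9). These intervals overlap. Set beside the gene numbers, alpha had more CTCF peaks than genes (20 and 15), and beta (11 and 16) and gamma (9 and 22) had fewer. The other 5 peaks lay between alpha and beta (2), between beta and gamma (2) and after gamma (1).

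The alpha peaks came in close pairs. Of the 19 distances between neighbouring alpha summits, 7 were under 1 kb (36.8%), beside 2.64% of 36079 such distances in the whole list. The 7 pairs, numbered here in order along the chromosome, took in 14 of the 20 alpha peaks. Their distances were 626, 631, 644, 647, 649, 666 and 705 bases (median 647, SD 26.5, n = 7). Pairs under 1 kb in the whole list (n = 953) had nearly the same median, 648 bases, but were far more scattered (SD 204.4, range 180 to 999). Beta had 0 such pairs among 10 distances (Wilson 95% upper limit 27.8%) and gamma 0 among 8 (upper limit 32.4%). As the closest neighbours there, beta had summits 5203 bases apart and gamma summits 4628 bases apart.

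**Figure D3:**
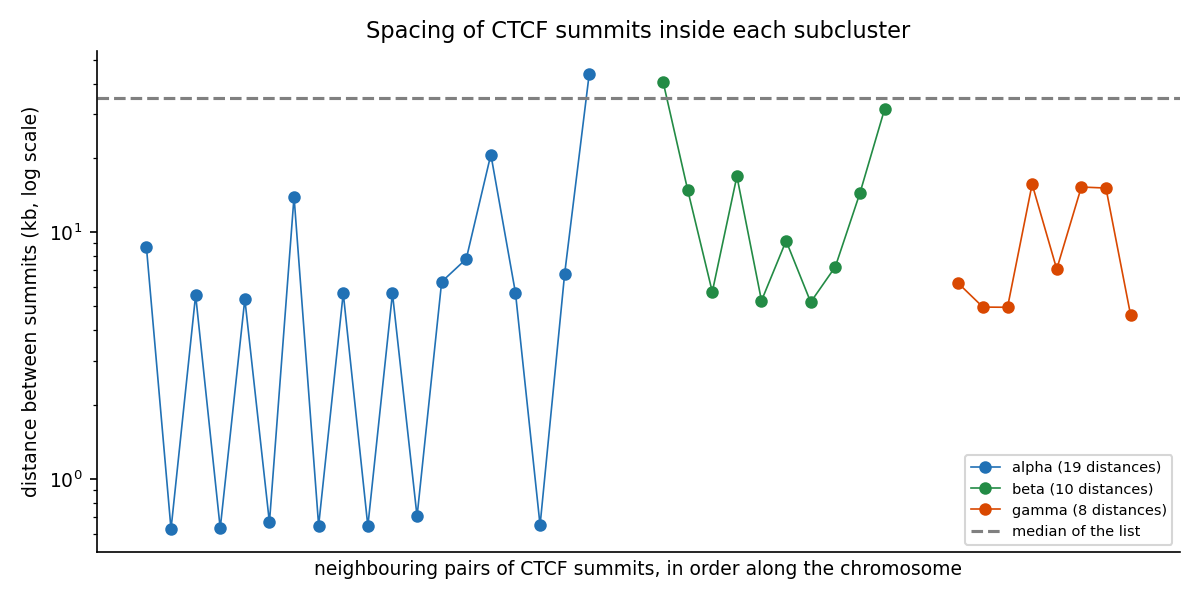
Distance in kb (log scale) between neighbouring CTCF summits, in order along the chromosome, within alpha, beta and gamma; the dashed line is the median of the whole list. Over its first 6 pairs alpha alternates between distances of 626 to 705 bases and longer ones, which beta and gamma do not.

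The pairs followed each other at a repeated step. From the middle of one pair to the middle of the next, the first 6 pairs lay 6188, 6002, 14580, 6304 and 6316 bases apart, so 4 of the 5 steps were between 6002 and 6316 bases. The last pair followed after 41053 bases. Between these, single peaks at chr5:140220648-140220842, chr5:140228387-140228745 and chr5:140249050-140249288 continued at distances of 6289 and 7789 bases and then 20623 bases. Distances of 4 to 8 kb, a range not planned beforehand, made up 8 of 19 in alpha, 4 of 10 in beta and 5 of 8 in gamma, beside 8.23% in the whole list. The window had 60 CTCF peaks per Mb, beside 12.4 over the autosomes, and dense peaks have short distances at any arrangement. Whether these shares, or that of alpha distances under 1 kb, go beyond the density was not tested. The median distance was 5.64 kb in alpha (quartiles 0.658 and 7.29), 11.8 kb in beta (quartiles 6.10 and 16.3) and 6.64 kb in gamma (quartiles 4.97 and 15.1), beside 35.1 kb in the list. The gamma distance rests on its weak peaks, and was 19712 bases with a −log10 q of 10 or more and 21452 bases with folds at or above the list median. The coefficient of variation of the distances was 1.38 in alpha, 0.798 in beta and 0.554 in gamma.

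No other stretch of 100 kb on the autosomes or chromosome X had as many CTCF pairs. Alpha had 7 pairs under 1 kb in 100 kb, and elsewhere on these chromosomes the highest number was 6. With any other contig of the list counted, it reached 16. The alpha count rests on peaks of moderate strength: 6 pairs were left with a −log10 q of 10 or more, and 1 with folds at or above the list median. The count elsewhere was not repeated with these limits. When only pairs at 626 to 705 bases were counted, the highest number elsewhere was 2, but that range was taken from alpha itself. In the whole list 108 pairs had such a distance, 11.3% of the 953 pairs under 1 kb.

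The left and right peaks of a pair differed in fold, mostly within the counting error of their fragments. The deposited fold enrichment of a peak was taken as the ratio of fragments at its summit to the local background, after adding 1 to each. CTCF fragments were first multiplied by the scale of 0.911. The fragment number solved from the fold gives the precision of that fold. In pair 1, the left peak (chr5:140174288-140174559) had a fold of 10.9 from 40 fragments (exact Poisson interval 28.6 to 54.5) and the right (chr5:140174654-140175149) 7.02 from 27 (interval 17.8 to 39.3). In pair 3, the left peak (chr5:140186443-140186733) had a fold of 14.7 from 59 fragments (interval 44.9 to 76.1). The right (chr5:140187102-140187399) had 19.7 from 87 (interval 69.7 to 107.3). This right peak was the strongest paired one, at the 89.6th percentile of the list. The fragment intervals of left and right overlapped in pairs 1, 2, 3, 5 and 6, and did not in pairs 4 and 7.

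In 5 of the 7 pairs the right peak, which is the downstream one on the plus strand, had the higher fold (71.4%, Wilson interval 35.9 to 91.8). Left and right folds were 8.45 and 10.0 in pair 2, 7.84 and 10.2 in pair 4, 3.29 and 9.51 in pair 6 and 6.17 and 12.8 in pair 7. In pair 5, as in pair 1, the left was higher, at 11 against 7.67. Pair 6 shows how the background enters. Its left and right peaks had 35 and 36 fragments, but the local background was 9 fragments at the left and 2.56 at the right, against a median of 3 in the list. The left peak (chr5:140213667-140213835) thus had the lowest fold of the window, at the 1.09th percentile of the list.

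Right peaks were wider than left ones in all 7 pairs. The left widths ran from 169 to 291 bases and the right widths from 298 to 601 bases. The median width was 294.5 bases over alpha, 293 over beta and 233 over gamma, beside 276 in the list. Of the 20 alpha peaks, 5 reached the list's 90th percentile of 482 bases, as did 0 in beta, 0 in gamma and 10.0% of the list. They were the right peaks of 4 pairs, at 496, 518, 521 and 601 bases, and the single peak chr5:140261540-140262432, the widest of the window at 893 bases. In these 5 the summit lay 58.7% to 83.4% of the way along the peak, whereas peaks this wide in the list had their summit at a median of 50.4% (quartiles 35.6 and 64.3). So the wide alpha peaks reached farther to the left of their summit than to the right.

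Outside the pairs, alpha had 6 single peaks. The first alpha peak, chr5:140165602-140165776, was weak (fold 5.61, 24 fragments) and lay 8697 bases before the first pair. The last, chr5:140305936-140306366, stood 43.9 kb from its neighbour and had the highest fold of the window, 24.2 from 91 fragments (interval 73.3 to 111.7), rank 1512 of the list. Also high were chr5:140228387-140228745 (fold 16.4) and the widest peak (fold 16.7). From the last alpha peak to the next CTCF summit there were 113771 bases.

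**Figure D4:**
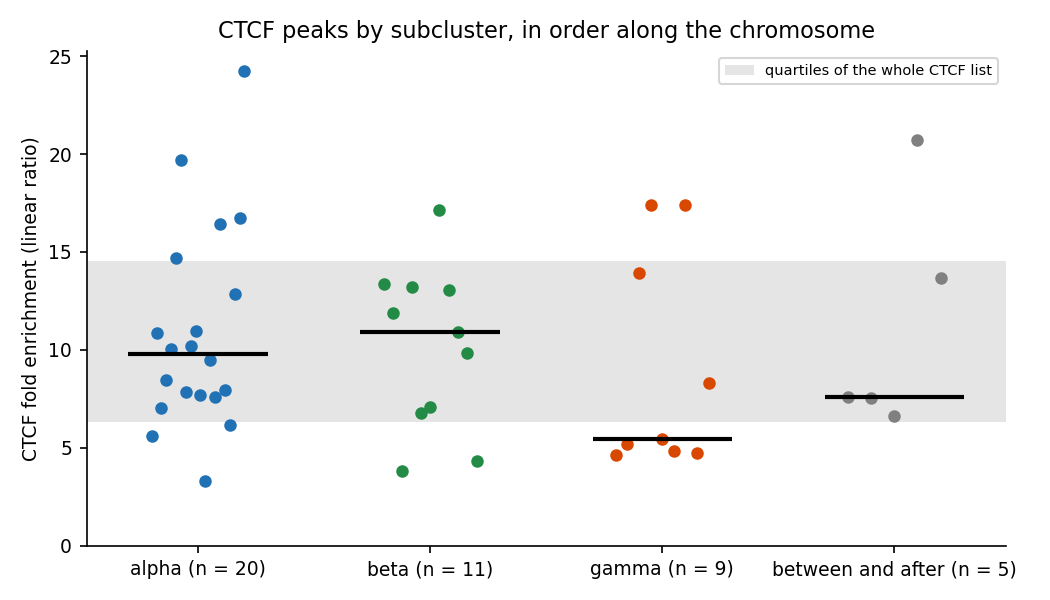
CTCF fold enrichment of each peak, in order along the chromosome within alpha, beta, gamma and the stretches between and after them; black lines are medians and the grey band spans the quartiles of the whole list. In gamma the points fall into 3 high and 6 low peaks.

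In strength the locus was ordinary. The median CTCF fold was 9.51 over the window, beside 9.52 in the list, and 2 of the 45 peaks reached the list's 90th percentile of 19.9, which 1 of 20 did in alpha, 0 of 11 in beta and 0 of 9 in gamma. In the flanks 5 of 13 peaks reached it, with a median of 18.1. Median folds were 9.78 in alpha, 10.9 in beta and 5.47 in gamma. The median local background was 2.91 fragments in the window and 3 in the list.

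Beta peaks stood singly, and 7 of the 11 had a fold at or above the list median. The first, chr5:140474012-140474268, had a fold of 13.4 from 51 fragments and was followed by the longest distance in beta, 40656 bases. The strongest, chr5:140566448-140566825, had a fold of 17.2 from 93 fragments (interval 75.1 to 113.9), the most fragments of any CTCF peak in the window. Its neighbour chr5:140571580-140572055, 5203 bases on, had a fold of 13.1 from 85 fragments. The weakest beta peaks were chr5:140529527-140529701 (fold 3.81, 24 fragments) and the last one, chr5:140624749-140624933 (fold 4.32). The last rested on 14 fragments (interval 7.65 to 23.5), the fewest in the window.

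Gamma was split into strong and weak peaks. The 3 strong ones were chr5:140734392-140734845 (fold 13.9, 60 fragments), chr5:140739368-140739634 (fold 17.4, 65 fragments) and chr5:140777291-140777577 (fold 17.4, 71 fragments). The other 6 had folds from 4.61 to 8.33 and from 15 to 28 fragments. The lowest was the first, chr5:140723241-140723473, at 4.61 from 15 fragments (interval 8.40 to 24.7), and the last, chr5:140797032-140797253, had a fold of 8.33. It closed the shortest distance of gamma, 4628 bases from chr5:140792401-140792619. The longest, 15638 bases, ended at chr5:140755041-140755284. Weak gamma peaks rest on few fragments, and 5 of the 9 gamma peaks had a −log10 q under 10, against 2 of 20 in alpha and 2 of 11 in beta. After the last gamma peak no CTCF summit followed for 94931 bases, up to chr5:140891803-140892417 (fold 13.7, 89 fragments), which lay beyond the gamma bound.

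CTCF peaks of the locus carried acetylation about as often as those of the list. In the window 7 of 45 CTCF peaks overlapped an H3K27ac peak by at least 1 base (15.6%, Wilson interval 7.75 to 28.8), beside 14.2% of the whole list. The 7 were 4 in alpha, 1 between alpha and beta, 1 in beta and 1 between beta and gamma, and 0 of the 9 gamma peaks (upper limit 29.9%). From the acetylation side, 6 of the 10 peaks shared at least 1 base with CTCF (60%, interval 31.3 to 83.2), beside 10.1% of the H3K27ac list and 5 of 32 in the flanks. This comparison is uneven, because each H3K27ac peak had 4.5 CTCF peaks in the window, 0.718 in the lists and 0.406 in the flanks. Whether the share goes beyond that difference in number was not tested.

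The 3 acetylated peaks inside the alpha array lay between the summits of a pair. Pairs 2, 5 and 7 each had an H3K27ac summit between their CTCF summits, 3 of 7 pairs (42.9%, Wilson interval 15.8 to 75), beside 24.3% of the 953 close pairs in the list and 32.4% of the 108 list pairs at 626 to 705 bases. These shares lie within the interval of the alpha pairs. The peak in pair 2, chr5:140180790-140181154, had a fold of 5.11 from 27 fragments. It was 9.94 from 49 fragments in pair 5 (chr5:140207612-140208116) and 5.89 from 28 in pair 7 (chr5:140255040-140255455). Their summits lay 324, 369 and 395 bases to the right of the left CTCF summit. Pairs 1, 3, 4 and 6 had no H3K27ac peak, although pair 3 had the highest CTCF folds of the 7.

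**Figure D5:**
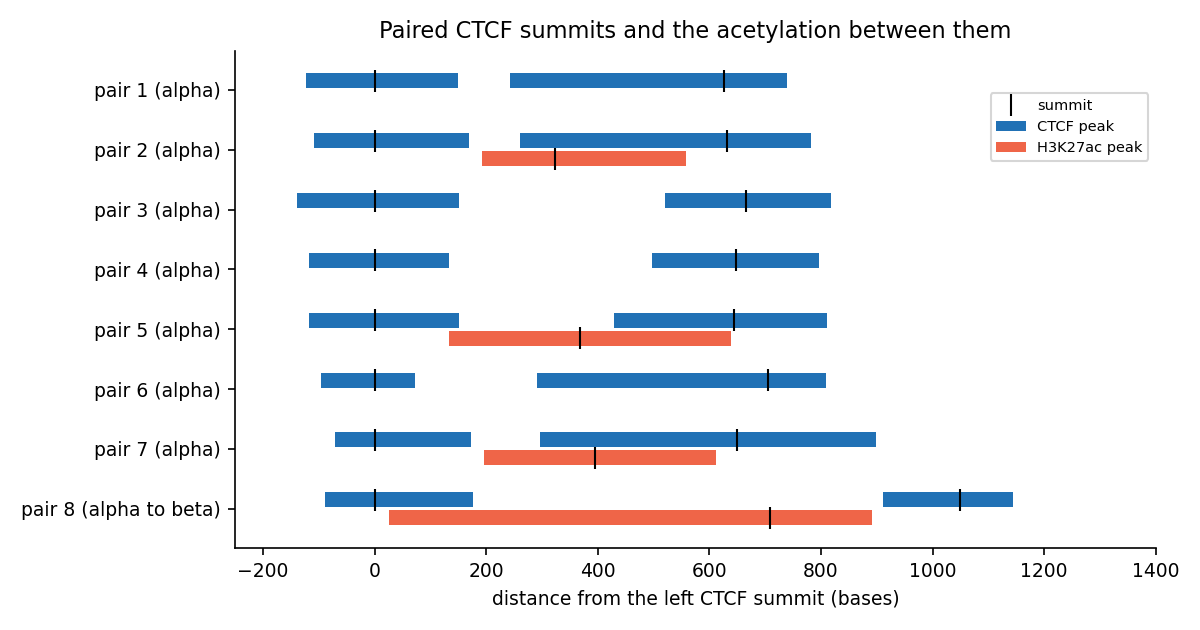
Extent of the paired CTCF peaks (blue) and of H3K27ac peaks (orange) in bases from the left CTCF summit, for the 7 alpha pairs and the wider pair between alpha and beta; black ticks are summits. The H3K27ac summits of pairs 2, 5, 7 and 8 fall between the CTCF summits.

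A wider pair with the same arrangement stood alone between alpha and beta. Its CTCF peaks, chr5:140419866-140420131 (fold 7.61, 49 fragments) and chr5:140420867-140421098 (fold 7.52, 44 fragments), had summits 1049 bases apart. The H3K27ac peak chr5:140419981-140420846 (fold 8.43, 49 fragments, 866 bases wide) filled the space between them, with its summit 708 bases from the left one. It overlapped the left CTCF peak by 151 bases and ended 21 bases before the right one. RefSeq's gene order has no protein-coding gene between alpha and beta. An enhancer of the alpha genes with a pair of CTCF sites, known as HS5-1, lies downstream of the alpha constant exons. Its position is not given in the sources used here, so it was not matched to this pair.

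Acetylation lay beside the CTCF summits more than on them. Of the 7 CTCF peaks with acetylation, 1 had its summit inside the H3K27ac peak (14.3%, Wilson interval 2.57 to 51.3), beside 59.3% of the 5121 such peaks in the list. Both peaks of pair 5 overlap the same H3K27ac peak, so the 7 are not independent. The median H3K27ac width was 505 bases in the window and 566 in the list, and a part of width in this difference was not tested. The 6 summits outside H3K27ac were 6, 26, 38, 74, 107 and 134 bases away from the nearest acetylated base. In beta, for example, the H3K27ac peak chr5:140474229-140474733 (fold 7.70, 35 fragments) began 107 bases to the right of the first beta CTCF summit.

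The exception was the strongest acetylated peak of the locus, chr5:140699837-140701050. It had a fold of 31.9 from 180 fragments (interval 154.7 to 208.3), the 98.1th percentile of the H3K27ac list, and was 1214 bases wide. The CTCF peak whose summit it covered, chr5:140699706-140700022, was the second strongest of the window, with a fold of 20.7 from 87 fragments. This site lay between beta and gamma, where RefSeq's gene order places SLC25A2, a mitochondrial carrier, and TAF7, a subunit of the general transcription factor TFIID. It was the one H3K27ac peak of the 10 above the list's 90th percentile, a fold of 16.8.

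The other 4 H3K27ac peaks had no CTCF peak on them. One was in alpha at chr5:140384075-140384483 (fold 3.88), 35383 bases from the nearest CTCF peak. Another, between beta and gamma at chr5:140648759-140649332 (fold 6.19), was 3232 bases from the CTCF peak chr5:140652564-140652776 (fold 6.61). The 2 gamma peaks, chr5:140855603-140856064 (fold 5.11) and chr5:140888378-140889098 (fold 3.83, 15 fragments), lay in the part of gamma after its last CTCF peak. They were 35739 and 2705 bases from the nearest CTCF peak, chr5:140891803-140892417, which lay beyond the gamma bound.

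Most beta and gamma CTCF peaks were far from any acetylation. Leaving out the first, the beta peaks were 23.8 to 82.5 kb from the nearest H3K27ac peak, and the gamma peaks 22.2 to 76.2 kb. Over 20 kb away were 2 of 20 peaks in alpha, 10 of 11 in beta and 9 of 9 in gamma, beside 51.7% of the list. Within 5 kb of H3K27ac were 12 of 45 peaks of the window (26.7%), beside 29.2% of the list, 6 of them in alpha. These 10 beta peaks lay in a stretch without acetylation, chr5:140474734-140648758, of 174 kb, and the 9 gamma peaks in another, chr5:140701051-140855602, of 154.6 kb. These stretches held 57.5 and 58.2 CTCF peaks per Mb. Another one, chr5:140255456-140384074 in alpha, was 128.6 kb long and held 3 CTCF summits, 23.3 per Mb. Over all 5218 stretches of more than 100 kb without H3K27ac, the median was 10.3 per Mb, with an upper quartile of 18.3.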

How the data were processed

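Bowtie, MACS2 and build hg19 are named in the submitters' processing notes. Not given in the sources used here are versions, settings, the background library and how reads that match several places were treated, so peaks in similar gene copies are uncertain. The authors deposited 1 narrow peak list per mark, each from 1 library: per peak a position, a score (10 times the −log10 q), a fold enrichment (a linear ratio) and the −log10 of p and q. Input libraries were not analysed here.

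Peaks were assigned by summit, and positions count from 1. Whole fragment numbers and backgrounds were solved from deposited fold and −log10 p (tolerance 0.002, CTCF scale 0.911, H3K27ac scale 1). This solved 100% of 36152 CTCF peaks and 99.6% of 50364 H3K27ac peaks; at a scale 3% off, 0.429% and 0.743%. The solver was tested on simulated data. Median summit depth was 45 CTCF and 23 H3K27ac fragments. Overlap needed 1 base. Chromosome lengths ran from the first to the last peak. Intervals are Wilson for shares, exact Poisson for counts and exact binomial for density ratios, at 95%. Python 3.11.15, SciPy 1.17.1 and pandas 2.3.3 were used.

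Members, lists and pair definitions were chosen with earlier results of these data known. Peaks named are all acetylated ones and, per subcluster, the first, last, strongest and weakest CTCF peaks and extreme neighbours, the 5 highest folds, and, chosen after their values were seen, others described. Peaks were not compared with promoters of these, other protocadherin or cohesin genes, which needs an annotation of hg19.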

Additional observations from a re-analysis of the deposited data

How the results depend on the processing

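Of 104 alternatives, 90 kept their value within 1.5 times (counts) or within its 95% interval (medians, shares and ratios). The 6 on pairs were chosen after seeing the data. Some of the 90 had no room to change. Merging summits within 500 bases joined none, as the closest summits of the window were 626 bases apart. A pair limit of 2 kb gave the same 7 alpha pairs, and assignment by any overlap left every value as it was. Stricter lists hold fewer peaks by construction. With a −log10 q of 10 or more, gamma kept 4 CTCF peaks at a median distance of 19712 bases and 0 H3K27ac peaks. With only folds at or above the list median, CTCF peaks numbered 10 in alpha, 7 in beta and 3 in gamma (median distance 21452 bases). The median alpha fold was 13.8, and gamma had 1 H3K27ac peak. Of the 7 alpha pairs 1 was left, pair 3, which had no H3K27ac peak. Acetylation between paired summits was not counted among the alternatives for this limit. The median gamma fold rose from 5.47 to 15.7 with the limit on q and to 17.4 with the limit on fold. It counts as kept only because its interval, from 9 peaks, was as wide as 4.76 to 17.4. The CTCF density of the window over that of the flanks fell from 1.85 to 1.60 with the limit on q and to 1.07 with the limit on fold. This ratio, too, counts as kept because its interval was wide, 0.979 to 3.73. Bounds widened by 10 kb gave beta 2 H3K27ac peaks. With the CTCF summit inside H3K27ac, overlap was 0 in alpha, 0 in beta and 2.22% in the window. No paired analysis was possible because each group has 1 library. Peaks of about 15 fragments limit the order of the weak gamma peaks.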

Other observations

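Other windows had many CTCF peaks and little acetylation. Among consecutive autosomal windows of 750 kb, chr14:106500001-107250000 had 50 CTCF and 0 H3K27ac peaks, chr22:22500001-23250000 had 44 and 9, chr14:19500001-20250000 had 38 and 2, and chr12:54750001-55500000 had 31 and 8. The 3 other windows with 45 or more CTCF peaks had from 104 to 151 H3K27ac peaks: chr1:156000001-156750000, chr9:139500001-140250000 and chr19:750001-1500000.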
